A study of Homo sapiens with 12 samples.

Results

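Wide intervals of 500 bp or more were taken from the 4 deposited peak lists of a HOXA13 chromatin immunoprecipitation sequencing (ChIP-seq) study in human liver-cancer cells. A peak list gives stretches of the genome in which a ChIP library holds more fragments than its input, and the width of a stretch is its end minus its start. The members were all intervals on chromosomes 1 to 22 whose width was 500 bp or more, 2210 of 143997 intervals over the 4 lists. HepG2 anti-HA held 1589 of 34089 (4.66%), HepG2 anti-HOXA13 243 of 71316 (0.341%), Huh7 anti-HA 256 of 28346 (0.903%) and Huh7 anti-HOXA13 122 of 10246 (1.19%). The members were chosen by width, a measured value, so the strength of wide intervals within their own list is given as a description and supports nothing further.

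The 4 groups of chromatin came from a pair of human liver-cancer lines. They were HepG2 carrying HA-tagged HOXA13 and precipitated with an anti-HA antibody, untagged HepG2 precipitated with an anti-HOXA13 antibody, and the same pair made from Huh7. The tagged cells came from stable transfection, and whether each was 1 clone or a pool, and which promoter drove the tagged gene, is not given in the sources used here. Each population also gave a mouse IgG library, not analysed here, and an input, which makes 12 libraries with 1 library per condition. The labels state 50 M reads per sample (M, 1e6 reads) and sonication to about 200 bp. With no replicate, differences between lists have no replicate check and no test was made; the intervals printed after shares are exact (Clopper-Pearson) 95% limits and those after folds are Poisson limits of the ChIP pileup, both covering counting error only. Markers of the liver-cancer lines could not be checked in lists of peaks.

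HOXA13 is a homeodomain transcription factor encoded at the 5′ end of the HOXA gene cluster, known for its part in the development of the limbs and the hindgut. A factor bound at a single DNA site usually gives an interval about as long as the sequenced fragments, whereas several neighbouring sites, a long occupied stretch or a repeat that is collapsed in the reference sequence give a longer one. Satellite and ribosomal repeats near centromeres are well known to collect reads in ChIP and input alike. Chromosome 19 is gene-dense and carries large clusters of zinc-finger genes. Positions are given on GRCh37, counted from 1, and no gene or sequence was assigned to them because no annotation of that build was used.

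HepG2 anti-HA had the most wide intervals, and in it they were also the strongest. The fold is the authors' deposited ratio of ChIP to expected pileup at the summit. Its median was 7.13 in wide intervals of HepG2 anti-HA and 2.78 in the intervals under 500 bp, with 1082 wide intervals (68.1%) at 5-fold or more against 8.04% of the shorter ones and 10.8% of all intervals of the list. In Huh7 anti-HOXA13 the median fold was 4.79 in wide and 2.69 in shorter intervals, and 52 wide intervals (42.6%) reached 5-fold against 1.52% of the shorter ones, where 2.01% of all did. In the other lists the medians lay closer together. HepG2 anti-HOXA13 had a median of 3.23 in wide and 2.84 in shorter intervals, and Huh7 anti-HA 2.85 in wide and 2.57 in shorter intervals. At 5-fold or more stood 14 wide intervals of HepG2 anti-HOXA13 (5.76%, against 0.0788% of the shorter ones, where 0.0982% of all did) and 1 of Huh7 anti-HA (0.391%, against 0.0712%, where 0.0741% of all did).

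The deposited q-values, given as −log10 q, followed the same order. A −log10 q of 5 or more, called strong here, was reached by 1394 wide intervals of HepG2 anti-HA (87.7%, where 21.2% of all its intervals did), by 65 of HepG2 anti-HOXA13 (26.7%, where 0.468% did), by 11 of Huh7 anti-HA (4.30%, where 0.374% did) and by 66 of Huh7 anti-HOXA13 (54.1%, where 2.60% did). Most wide Huh7 anti-HA intervals were therefore weak. The median wide summit stood on a pileup of 51 ChIP fragments for HepG2 anti-HA, 14 for HepG2 anti-HOXA13, 22 for Huh7 anti-HA and 28 for Huh7 anti-HOXA13, against 12, 7, 11 and 14 in the shorter intervals of the same lists. Of the strong intervals of each list, wide ones made up 19.3% for HepG2 anti-HA, 19.5% for HepG2 anti-HOXA13, 10.4% for Huh7 anti-HA and 24.8% for Huh7 anti-HOXA13.

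The width limit cut through a continuous distribution. The median width of wide intervals was 591 bp for HepG2 anti-HA, 595 bp for HepG2 anti-HOXA13, 592.5 bp for Huh7 anti-HA and 642.5 bp for Huh7 anti-HOXA13. The tails differed more than the medians. Intervals of 1000 bp or more made up 46 of the wide intervals for HepG2 anti-HA (2.89%), 34 for HepG2 anti-HOXA13 (14.0%), 2 for Huh7 anti-HA (0.781%) and 26 for Huh7 anti-HOXA13 (21.3%). In the 10 bp classes on either side of the limit, HepG2 anti-HA held 123 intervals inside with a median fold of 6.49 and 117 outside with 5.77. The same classes held 21 and 19 intervals in HepG2 anti-HOXA13 (median fold 2.93 and 3.38), 13 and 29 in Huh7 anti-HA (3.00 and 2.80), and 4 and 5 in Huh7 anti-HOXA13 (4.11 and 3.69). No step in strength stood at the limit. The place of the summit along the wide interval varied widely, with quartiles at 0.36 and 0.64 of the length in HepG2 anti-HA, 0.27 and 0.74 for HepG2 anti-HOXA13, 0.30 and 0.75 for Huh7 anti-HA, and 0.30 and 0.67 for Huh7 anti-HOXA13.

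**Figure D1:**
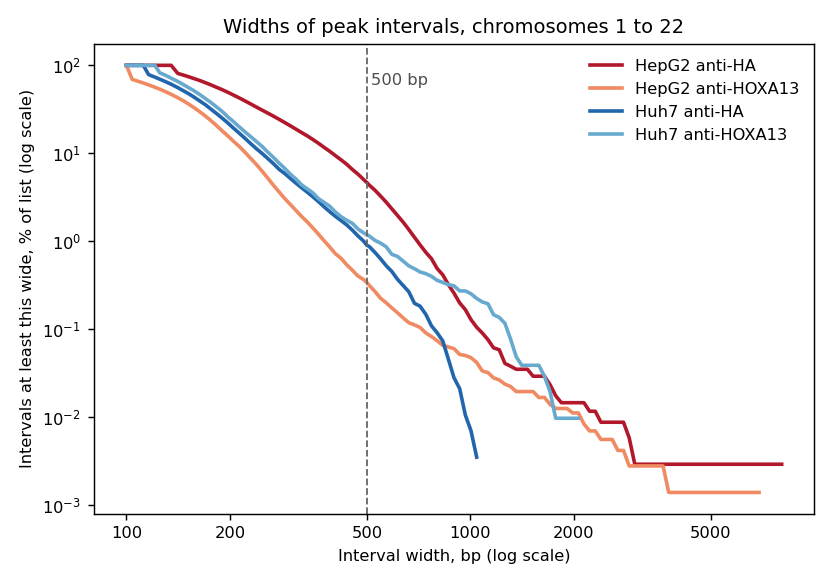
Share of each list's intervals on chromosomes 1 to 22 (y axis, percent, log scale) at least as wide as the value on the x axis (bp, log scale); 1 line per list, with the 500 bp limit dashed. At 500 bp the lines stand at 4.66% for HepG2 anti-HA, 0.341% for HepG2 anti-HOXA13, 0.903% for Huh7 anti-HA and 1.19% for Huh7 anti-HOXA13. The Huh7 anti-HA line ends first, at 1071 bp.

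The shortest interval of a list differed, at 135 bp for HepG2 anti-HA, 103 bp for HepG2 anti-HOXA13, 114 bp for Huh7 anti-HA and 123 bp for Huh7 anti-HOXA13, so the same 500 bp is a different multiple of it in each list. With a limit of 5 times the shortest interval, the wide intervals numbered 425 for HepG2 anti-HA, 212 for HepG2 anti-HOXA13, 150 for Huh7 anti-HA and 69 for Huh7 anti-HOXA13. With only intervals of −log10 q of 1.3 or more, which was reached by 50.6%, 9.90%, 6.61% and 9.37% of all intervals in the order of the lists above, the count was 1559 (98.1%) for HepG2 anti-HA, 160 (65.8%) for HepG2 anti-HOXA13, 137 (53.5%) for Huh7 anti-HA and 103 (84.4%) for Huh7 anti-HOXA13.

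Many wide intervals lay where the input was also high. From the deposited fold and −log10 p, the expected pileup at each summit was solved, and an expected pileup over 3 times the background of the list is called raised input. It was found under 468 wide intervals of HepG2 anti-HA (29.5%, where 17.0% of all its intervals had it), 78 of HepG2 anti-HOXA13 (32.1%, where 1.48% had it), 103 of Huh7 anti-HA (40.2%, where 8.06% had it) and 12 of Huh7 anti-HOXA13 (9.84%, where 8.79% had it). Wide Huh7 anti-HOXA13 intervals thus had raised input about as often as the shorter ones of that list (8.78%). The wide intervals of HepG2 anti-HOXA13 differed in kind with the input. Those with raised input had a median expected pileup of 8.57 times the background, a median width of 706 bp and a median fold of 2.38, and those without it a median width of 572 bp and a median fold of 3.42. The shares turn on the limit: at over 2 times the background they were 63.2%, 44.9%, 69.1% and 25.4% in the order of the lists above, and at over 5 times 8.43%, 19.8%, 14.5% and 1.64%. The part of input level in the width was not tested.

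**Figure D2:**
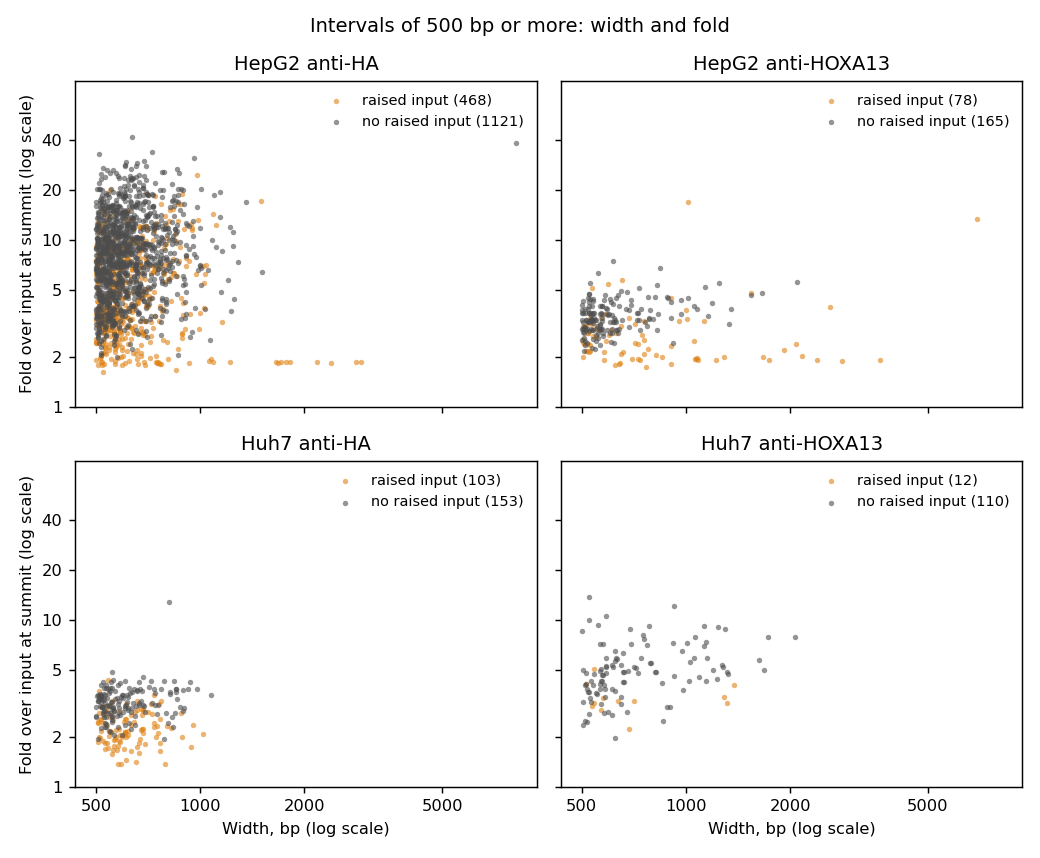
Width (x axis, bp, log scale) and deposited fold over input at the summit (y axis, log scale) of every interval of 500 bp or more, 1 panel per list; orange points have raised input and grey points do not. Of the 10 widest points, 9 in HepG2 anti-HA and 6 in HepG2 anti-HOXA13 come from a single stretch of chromosome 16 and lie near 2-fold. HepG2 anti-HA reaches 41.4-fold, whereas Huh7 anti-HA has 1 point above 5-fold.

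The widest intervals of both HepG2 lists came largely from the same places. Of the 10 widest in HepG2 anti-HA, 1658 to 8161 bp, 9 lay on chromosome 16 between 46385830 and 46434601, each with raised input. Their folds were between 1.84 and 1.86, and the expected pileup there was 51.6 to 55.6 times the background. Of the 10 widest in HepG2 anti-HOXA13, 1737 to 6933 bp, 6 lay in that stretch, with folds of 1.87 to 2.19. Very wide intervals of low fold over very high input thus made up most of the top of both lists. The exception in HepG2 anti-HA was the widest of all.

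That interval lay at chromosome 21, 9825450 to 9833610, was 8161 bp wide and stood at 38.0-fold (33.4 to 43.1) on a pileup of 242 where 5.39 was expected. HepG2 anti-HOXA13 covered the same place with 2 wide intervals, 1 of 1016 bp at 17.0-fold and 1 of 6933 bp at 13.4-fold (11.5 to 15.5), the larger at 9826713 to 9833645. Huh7 anti-HA had there its single wide interval above 5-fold, 812 bp at 9825534 to 9826345 and 12.9-fold (9.70 to 16.9). Huh7 anti-HOXA13 had no interval there. The expected pileup was 2.06 times the background in HepG2 anti-HA, 6.98 times under the longer HepG2 anti-HOXA13 interval and 1.19 times in Huh7 anti-HA.

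Other wide HepG2 anti-HA intervals of very high fold were shorter, with an expected pileup of 1.00 to 1.85 times the background. Chromosome 4, 56435018 to 56435652, had 41.4-fold (35.1 to 48.6) over 635 bp, on 149 fragments against 2.62 expected. Chromosome 8, 99610079 to 99610803, had 33.9-fold (29.1 to 39.2) over 725 bp. On chromosome 1, the interval 29074636 to 29075145 had 32.8-fold (28.3 to 37.8) over 510 bp, and chromosome 6, 71558992 to 71559947, had 31.1-fold (25.8 to 37.1) over 956 bp. Among these, the chromosome 6 interval had Huh7 anti-HA intervals under it, the stronger at 2.83-fold, and the others had none in any other list.

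The widest Huh7 anti-HOXA13 intervals were of another kind, with folds of 3.18 to 8.90 and an expected pileup of 1.00 to 3.08 times the background. Of its 10 widest, 1292 to 2072 bp, 3 had raised input, 4 lay on chromosome 19 and 5 within 1 Mb of the outermost interval of a chromosome. Chromosome 12, 133779114 to 133781185, was 2072 bp wide at 7.94-fold (5.59 to 11.0), chromosome 20, 62595926 to 62597648, was 1723 bp wide at 7.96-fold (5.71 to 10.8), and chromosome 4, 436292 to 437921, was 1630 bp wide at 5.80-fold (4.08 to 8.02). By 1 bp of overlap, HepG2 anti-HOXA13 held intervals in 6 of the 10. Of all wide intervals of the list 28.7% overlapped it, and of the shorter ones 2.08%. HepG2 anti-HA held intervals in 0 of the 10, where 3.28% of the wide and 2.07% of the shorter ones overlapped it. Intervals this long have more bases to meet another one with. At the highest folds of this list stood an interval of 526 bp on chromosome 19, 2933346 to 2933871, with 13.7-fold (10.9 to 16.9), and one of 927 bp on chromosome 17, 15619792 to 15620718, with 12.2-fold (9.37 to 15.7). No other list had an interval in either.

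The widest Huh7 anti-HA intervals were shorter, at 892 to 1071 bp, with folds of 1.73 to 4.24. The widest lay at chromosome 12, 39836419 to 39837489, with 3.54-fold (2.11 to 5.61) on 16 fragments where 3.81 were expected. HepG2 anti-HA had there an interval of 767 bp and 1.80-fold, with a −log10 q of 0.171 and raised input, 5.14 times the background. Chromosome 19, 2096213 to 2097147, had 4.24-fold (2.92 to 5.96) over 935 bp, with 760 bp and 3.25-fold in HepG2 anti-HA. By 1 bp of overlap, HepG2 anti-HA held 9 of these 10 intervals, where 63.7% of the wide and 8.21% of the shorter intervals of the list overlapped it. Neither anti-HOXA13 list held any, where 1.37% of the shorter intervals overlapped HepG2 anti-HOXA13 and 0.637% Huh7 anti-HOXA13. With shares that low, 10 intervals are too few to set the widest apart in the anti-HOXA13 lists.

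Wide intervals of HepG2 anti-HA were spread over all 22 chromosomes. They made up between 2.49% of the list's intervals, on chromosome 20, and 6.83%, on chromosome 12, with a median over chromosomes of 4.98%. Chromosome 2 held 186 of them (11.7%) against 16.8% of the shorter intervals. Huh7 anti-HA also had wide intervals on every chromosome, from 0.180% of its intervals on chromosome 13 to 2.79% on chromosome 21. Chromosome 1 held 37 of them (14.5%) against 8.84% of the shorter ones. The anti-HOXA13 lists were uneven by comparison.

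In Huh7 anti-HOXA13, chromosome 19 held 63 of the 122 wide intervals (51.6%, 42.4 to 60.8%) against 5.48% of the shorter intervals of the list. Wide intervals were 10.2% (7.92 to 12.9%) of all the intervals that this list had on chromosome 19, where its median over the chromosomes was 0.506%. Raised input did not go with this: 59 of the 63 lay without it, and among wide intervals without raised input chromosome 19 held 53.6%. Their median fold, 4.79, was that of the wide intervals on the other chromosomes, and 31 of them were strong against 35 of the other 59. They lay on both sides of the chromosome's long stretch with no interval in any list, 36 before it and 27 after it. In the other 3 lists, chromosome 19 held 1.83% of the wide intervals of HepG2 anti-HA, against 1.73% of the shorter ones. It held 11.1% against 1.72% in HepG2 anti-HOXA13 and 4.69% against 2.40% in Huh7 anti-HA. These 2 lists thus also had a higher share of their wide than of their shorter intervals there, on 27 and 12 wide intervals.

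In HepG2 anti-HOXA13, 5 chromosomes, 20, 21, 16, 19 and 1, together held 192 of the 243 wide intervals (79.0%, 73.3 to 84.0%) against 27.6% of the shorter ones. The 5 differed in kind. On chromosome 20 the 55 wide intervals (22.6% against 9.97% of the shorter ones) had no raised input in any case and none was strong, with −log10 q of at most 3.77 and a median fold of 3.23. On chromosome 21 the 47 wide intervals (19.3% against 1.75%) lay almost all, 46 of them, before the long interval-free stretch of that chromosome. On chromosome 16, 21 of the 37 wide intervals (15.2% against 7.41%) had raised input, and the median fold was 2.46. Chromosome 2, which held 16.3% of the shorter intervals, held 4 of the wide ones (1.65%).

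Position along the chromosome set the lists apart further. As no map of the assembly gaps was used, 18 stretches of 2.9 Mb or more with no interval in any list, 1 on each of 18 chromosomes, stood in for centromeres and other gaps. Within 1 Mb of them lay 97 wide intervals of HepG2 anti-HOXA13 (39.9%, 33.7 to 46.4%), where 3.38% of all its intervals lay so. The same held for 40 wide intervals of HepG2 anti-HA (2.52%, where 2.70% of all did), 6 of Huh7 anti-HA (2.34%, where 1.63% did) and 6 of Huh7 anti-HOXA13 (4.92%, where 1.73% did). Of the 97, chromosome 21 held 36 and chromosome 16 held 21. Without raised input, 44 of 165 wide intervals of HepG2 anti-HOXA13 (26.7%) still lay near such a stretch, against 2.74% of its shorter intervals without it.

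Chromosome ends were taken as the outermost intervals of any list, which on chromosomes with an unsequenced short arm is not the telomere. Within 1 Mb of an end lay 21 wide intervals of Huh7 anti-HOXA13 (17.2%, 11.0 to 25.1%, where 2.36% of all did), 7 of them on chromosome 4 and 7 on chromosome 19. In Huh7 anti-HA the count was 25 (9.77%, where 2.11% did) and in HepG2 anti-HOXA13 22 (9.05%, where 2.56% did), of which 11 lay on chromosome 21. In HepG2 anti-HA it was 43 (2.71%, where 2.17% did). Chromosome ends thus held a higher share of the wide intervals than of the whole list in 3 lists, and a nearly equal share in HepG2 anti-HA.

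Wide intervals also differed in how they clustered. Joining wide intervals of a list that lay within 100 kb of each other left 1063 of HepG2 anti-HA alone (66.9%), 66 of HepG2 anti-HOXA13 (27.2%), 218 of Huh7 anti-HA (85.2%) and 70 of Huh7 anti-HOXA13 (57.4%). Runs of 5 or more took up 91 wide intervals of HepG2 anti-HOXA13 (37.4%) in 7 runs and 46 of HepG2 anti-HA (2.89%) in 6 runs. In Huh7 anti-HOXA13 they took up 12 (9.84%) in 2 runs. Huh7 anti-HA had 0 of 256 in such runs, and its largest run held 4. The lists differed in their number of wide intervals, and the part of that number in the clustering was not tested. The runs of HepG2 anti-HOXA13 were dense. The largest held 28 wide intervals at chromosome 21, 10624288 to 10905461, at a median of 3.86-fold, 2 of them with raised input.

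Another held 19 at chromosome 16, 46385855 to 46435552, at a median of 1.95-fold, all with raised input, and HepG2 anti-HA had a run of 18 at 46385830 to 46435559. On chromosome 19, 13 wide intervals lay within 36763066 to 36800080 and 9 within 37763307 to 37792008, at medians of 3.43-fold and 3.42-fold. On chromosome 1, 11 lay within 2588138 to 2615816 at a median of 4.42-fold, 1 of them with raised input. The runs of Huh7 anti-HOXA13 on chromosome 19 were looser and stronger. The largest held 7 wide intervals over 11943126 to 12187547 at a median of 5.52-fold, none with raised input, and the next 5 over 58489598 to 58774233 at 7.31-fold. On chromosome 4, 3 lay over 11790 to 156186 and 3 over 366749 to 437921, at medians of 4.20-fold and 4.94-fold.

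Whether another list had an interval at the same place was a measure that the choice by width had not used, since the lists share no library. Wide intervals were held by another list more often than the shorter ones in all 4 lists. By an overlap of 1 bp or more with any other list, 429 wide intervals of HepG2 anti-HA were held (27.0%, 24.8 to 29.3%, where 11.3% of all its intervals were), 130 of HepG2 anti-HOXA13 (53.5%, 47.0 to 59.9%, where 2.69% were), 163 of Huh7 anti-HA (63.7%, 57.5 to 69.6%, where 10.1% were) and 39 of Huh7 anti-HOXA13 (32.0%, 23.8 to 41.0%, where 5.71% were). A wide interval has more bases to meet another one with. The summit, a single base, removes that advantage of the interval asked about. It does not remove the advantage of a wider interval in the other list, whose part was not tested.

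By summits lying inside an interval of another list, the shares were 18.9% for wide and 7.54% for shorter intervals of HepG2 anti-HA, 38.3% for wide and 1.77% for shorter intervals of HepG2 anti-HOXA13, 39.8% for wide and 7.33% for shorter intervals of Huh7 anti-HA, and 13.9% for wide and 3.39% for shorter intervals of Huh7 anti-HOXA13. Over all intervals they were 8.07%, 1.90%, 7.63% and 3.51% in the same order. The contrast between wide and shorter intervals therefore remained by summit in each list. With raised input left out of both the wide intervals and the lists they were set against, the overlap share was 19.98% of wide and 6.81% of shorter intervals for HepG2 anti-HA (7.33% of all), 33.3% of wide and 1.86% of shorter ones for HepG2 anti-HOXA13 (1.94% of all), 27.5% and 5.34% for Huh7 anti-HA (5.47% of all), and 31.8% and 4.07% for Huh7 anti-HOXA13 (4.40% of all). With −log10 q of 1.3 or more asked of every interval, the share was 10.7% of wide and 5.03% of shorter intervals for HepG2 anti-HA (5.55% of all), 51.25% and 5.01% for HepG2 anti-HOXA13 (6.06% of all), and 56.9% and 30.6% for Huh7 anti-HA (32.5% of all). For Huh7 anti-HOXA13 it was 11.7% (6.17 to 19.5%) of wide and 5.25% (3.86 to 6.96%) of shorter intervals (5.94% of all), whose limits overlap. No wide interval was held by all 3 other lists, in 0 of 1589, 0 of 243, 0 of 256 and 0 of 122, which allows shares of up to 0.189%, 1.23%, 1.17% and 2.46% in the order of the lists given above. These limits, and those given after other counts of 0, are 3 counts of the total and not the Clopper-Pearson limits. Of the shorter intervals, 2 of 32500, 2 of 71073, 2 of 28090 and 2 of 10124 were held by all 3 other lists. The counts of 0 therefore do not set wide intervals apart from shorter ones.

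Taken pair by pair, wide anti-HA intervals of one line were found in anti-HA of the other. The summits of 102 wide Huh7 anti-HA intervals lay in HepG2 anti-HA intervals (39.8%, 33.8 to 46.1%) against 6.50% of the shorter ones, where 6.80% of all did. Without raised input under the Huh7 interval the share was 37.9% of 153 wide and 4.88% of shorter intervals. In the other direction, 271 wide HepG2 anti-HA summits lay in Huh7 anti-HA intervals (17.1%, 15.2 to 18.996%) against 4.54% of the shorter ones, where 5.12% of all did. The partner was wide as well in a minority of cases, though more often than the intervals of its list as a whole. Of the wide Huh7 anti-HA intervals overlapped at all, it was wide for 42 of 163, where 4.66% of all HepG2 anti-HA intervals were. Of the wide HepG2 anti-HA intervals it was wide for 41 of 376, where 0.903% of all Huh7 anti-HA intervals were. The HepG2 anti-HA intervals overlapped by wide Huh7 anti-HA intervals had a median width of 359 bp, and the Huh7 anti-HA ones overlapped by wide HepG2 anti-HA intervals had a median of 220 bp and 2.60-fold. Of the HepG2 anti-HA partners, 116 of 169 had raised input (68.6%), against 50.3% of the partners of shorter Huh7 anti-HA intervals.

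Within the HepG2 line, 86 wide anti-HOXA13 summits lay in anti-HA intervals (35.4%, 29.4 to 41.8%) against 1.34% of the shorter ones, where 1.45% of all did. The share was higher with raised input, at 58 of 78 (74.4%), than without it, at 28 of 165 (17.0%) against 0.856% of the shorter intervals without raised input. In the other direction 61 wide HepG2 anti-HA summits lay in HepG2 anti-HOXA13 intervals (3.84%, 2.95 to 4.90%) against 2.92% of the shorter ones, where 2.96% of all did. Without raised input that share was 1.61% of wide and 2.09% of shorter intervals. Wide and shorter intervals of HepG2 anti-HA thus lay within 1 percentage point of each other in this pair.

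In the Huh7 line, few wide intervals of either antibody were found in the list of the other, as was so of all its intervals. Of the wide Huh7 anti-HA summits, 0 of 256 lay in a Huh7 anti-HOXA13 interval, which allows a share of up to 1.17%, against 0.427% of the shorter ones, where 0.423% of all did. By 1 bp of overlap the count was also 0, where 0.631% of all did. Of the wide Huh7 anti-HOXA13 summits, 1 of 122 lay in a Huh7 anti-HA interval (0.820%) against 1.03% of the shorter ones, where 1.02% of all did. By 1 bp of overlap it was 4 of 122 (3.28%) against 1.73%, where 1.75% of all were held. Of the same summits, 0 of 122 lay in a HepG2 anti-HA interval, which allows up to 2.46%, against 1.38%, where 1.37% of all did. These counts are too small to set wide and shorter intervals apart.

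The anti-HOXA13 lists of the 2 lines had more in common. The summits of 17 wide Huh7 anti-HOXA13 intervals lay in HepG2 anti-HOXA13 intervals (13.9%, 8.33 to 21.4%) against 1.28% of the shorter ones, where 1.43% of all did. The share was 9 of 63 on chromosome 19 (14.3%) and 8 of 59 on the other chromosomes (13.6%), so chromosome 19 did not carry it alone. By 1 bp of overlap it was 35 of 122 (28.7%) against 2.08%, where 2.40% of all did. The 40 HepG2 anti-HOXA13 partners had a median of 182 bp and 3.30-fold, where the intervals under 500 bp of that list had 129 bp and 2.84-fold. Of the 40, 16 reached −log10 q of 1.3 (9.90% of all its intervals did), 2 were strong (5.00%, where 0.468% of all were) and 2 had raised input. In the other direction, 10 wide HepG2 anti-HOXA13 summits lay in Huh7 anti-HOXA13 intervals (4.12%, 1.99 to 7.44%) against 0.265%, where 0.278% of all did. The remaining pairs crossed both line and antibody. Huh7 anti-HA intervals held 33 wide HepG2 anti-HOXA13 summits (13.6%, 9.54 to 18.5%) against 0.303% of the shorter ones, where 0.348% of all were held, but 1 of 165 (0.606%) without raised input. Huh7 anti-HOXA13 intervals held 6 wide HepG2 anti-HA summits (0.378%) against 0.388%, where 0.387% of all were held. HepG2 anti-HOXA13 intervals held 7 wide Huh7 anti-HA summits (2.73%) against 0.936%, where 0.953% of all were held.

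**Figure D3:**
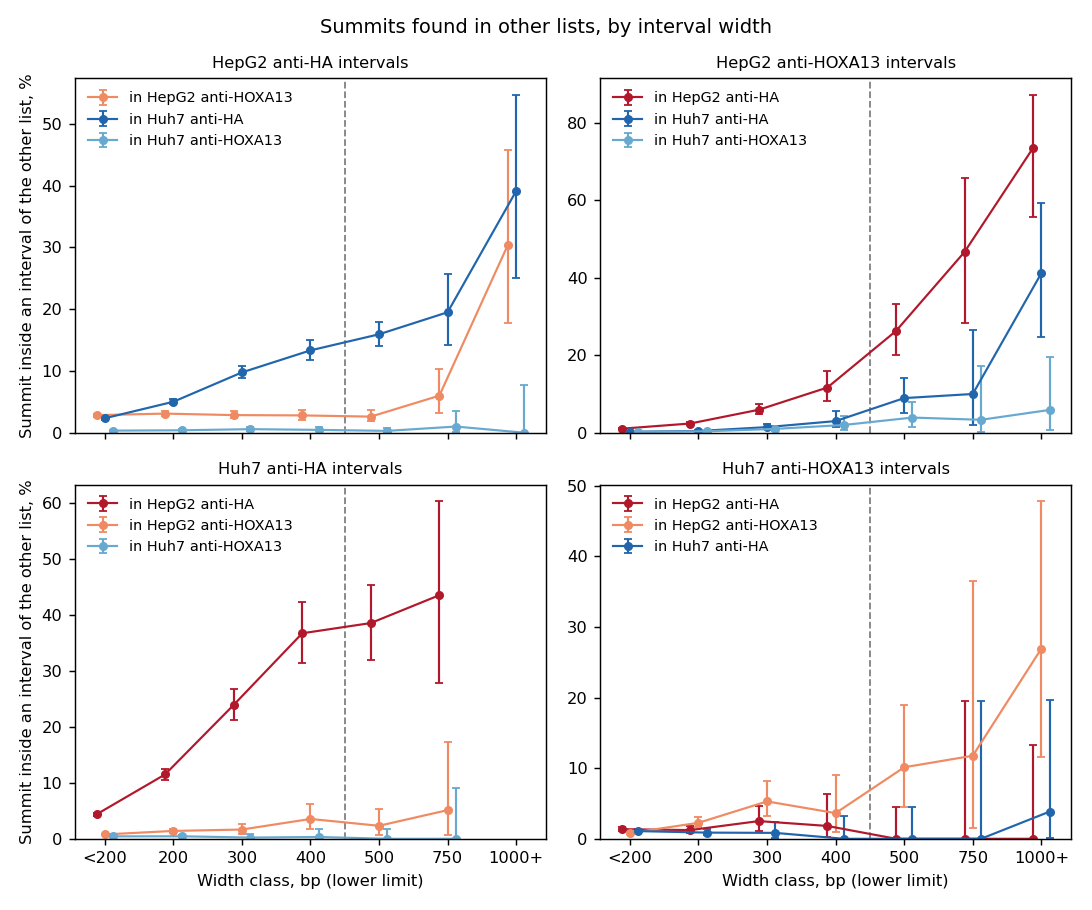
Share of intervals (y axis, percent) whose summit lay inside an interval of another list, by width class of the interval (x axis, lower limit in bp; 500 bp dashed), 1 panel per list and 1 line per other list, with exact 95% limits; classes of fewer than 10 intervals are not drawn. HepG2 anti-HOXA13 summits found in HepG2 anti-HA stand at 1.04% under 200 bp and 73.5% at 1000 bp or more.

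In some pairs the shares were higher in wider classes below 500 bp as well as above it. HepG2 anti-HA summits lay in Huh7 anti-HA intervals in 2.34% of cases under 200 bp, 13.3% at 400 to 500 bp, 15.9% at 500 to 750 bp, 19.5% at 750 to 1000 bp and 39.1% at 1000 bp or more. Huh7 anti-HA summits lay in HepG2 anti-HA intervals in 4.37%, 36.8%, 38.6% and 43.6% of cases over the first 4 of those classes, and the 2 intervals of 1000 bp or more were both held. Huh7 anti-HOXA13 summits lay in HepG2 anti-HOXA13 intervals in 0.817% of cases under 200 bp, 5.29% at 300 to 400 bp, 3.64% at 400 to 500 bp, 10.1% at 500 to 750 bp and 26.9% at 1000 bp or more. Not every pair showed such an order. HepG2 anti-HA summits lay in HepG2 anti-HOXA13 intervals in 2.85% of cases under 200 bp, 2.80% at 400 to 500 bp and 2.61% at 500 to 750 bp, though in 30.4% at 1000 bp or more. Huh7 anti-HA summits lay in Huh7 anti-HOXA13 intervals in 0.433% of cases under 200 bp, 0.323% at 400 to 500 bp and 0 of 215 at 500 to 750 bp.

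Wide intervals had higher folds, so width was also set against presence in another list within classes of fold, among intervals without raised input. Here raised input was left out only for the intervals asked about, and the other list kept its intervals with raised input. By overlap, this way held 61.4% of wide and 7.67% of shorter Huh7 anti-HA intervals. With raised input left out of both sides the shares were 27.5% and 5.34%. Above 5-fold, the shares of wide and shorter HepG2 anti-HA intervals found in Huh7 anti-HA had overlapping limits. At 15-fold or more the shares were 43 of 168 wide (25.6%, 19.2 to 32.9%) and 21 of 74 shorter intervals (28.4%, 18.5 to 40.1%), and at 8- to 15-fold 10.6% (7.81 to 14.0%) of wide and 8.82% (6.67 to 11.4%) of shorter ones. At 5- to 8-fold they were 6.85% (4.23 to 10.4%) and 4.98% (3.95 to 6.17%). Below 5-fold the classes stood apart: at 3- to 5-fold 25 of 205 wide intervals (12.2%, 8.05 to 17.5%) were found and 2.895% (2.57 to 3.25%) of the shorter ones. Under 3-fold it was 8 of 41 wide intervals (19.5%, 8.82 to 34.9%) and 1.66% of the shorter ones. Median folds within the 3- to 5-fold class were 4.04 in wide and 3.32 in shorter intervals, so the classes were not fully matched.

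The limits take intervals as independent, although only 27.2% of wide HepG2 anti-HOXA13 intervals lay alone, so they can be too narrow. Whether limits overlapped is given as a description and not as a test. In some other pairs the limits of wide and shorter intervals also stood apart at 3- to 5-fold. Among them was HepG2 anti-HOXA13 in Huh7 anti-HOXA13, with 4 of 109 wide (3.67%, 1.01 to 9.13%) and 0.289% (0.217 to 0.378%) of shorter cases. Huh7 anti-HA intervals of 3- to 5-fold were found in HepG2 anti-HA in 40 of 98 wide (40.8%, 31.0 to 51.2%) and 7.58% of shorter cases, and HepG2 anti-HOXA13 intervals of that class in HepG2 anti-HA in 25 of 109 wide (22.9%, 15.4 to 32.0%) and 1.31% of shorter cases. Under 3-fold, the limits of Huh7 anti-HA in HepG2 anti-HA stood apart, with 17 of 54 wide (31.5%, 19.5 to 45.6%) and 4.07% of shorter cases. So did those of HepG2 anti-HA in HepG2 anti-HOXA13, with 5 of 41 (12.2%, 4.08 to 26.2%) and 2.35%. Those of HepG2 anti-HOXA13 in Huh7 anti-HOXA13 stood apart too, with 3 of 47 (6.38%, 1.34 to 17.5%) and 0.174%. Limits overlapped for HepG2 anti-HOXA13 in HepG2 anti-HA, with 2 of 47 wide (4.26%, 0.520 to 14.5%) and 0.677% (0.608 to 0.751%) of shorter cases. They also overlapped for HepG2 anti-HA in HepG2 anti-HOXA13 at 3- to 5-fold, with 6 of 205 wide (2.93%, 1.08 to 6.26%) and 1.95% (1.68 to 2.25%) of shorter cases. For Huh7 anti-HOXA13 in HepG2 anti-HOXA13 they overlapped both at 3- to 5-fold, with 3 of 49 wide (6.12%, 1.28 to 16.9%) and 1.44% (1.01 to 1.98%) of shorter cases, and at 5- to 8-fold, with 7 of 39 wide (17.9%, 7.54 to 33.5%) and 9 of 142 shorter intervals (6.34%, 2.94 to 11.7%).

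Few places were wide in more than 1 list. Merging overlapping wide intervals of all lists gave 2120 regions, of which 2042 were wide in 1 list, 73 in 2, 5 in 3 and 0 in 4. HepG2 anti-HA and HepG2 anti-HOXA13 shared 33 regions of this kind, 4 of them without raised input, and 14 lay on chromosome 16. HepG2 anti-HA and Huh7 anti-HA shared 36, 9 of them without raised input. Both anti-HOXA13 lists shared 4, 3 of them without raised input. The 5 regions wide in 3 lists were all of HepG2 anti-HA, HepG2 anti-HOXA13 and Huh7 anti-HA.

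One of the 5 was the chromosome 21 region described above. Another 3 lay on chromosome 16, at 46391850 to 46395485, 46399373 to 46402293 and 46404905 to 46407076. Their wide intervals had folds of 2.003 or less in all 3 lists, and a shorter HepG2 anti-HOXA13 interval at 46399373 to 46402293 reached 2.32-fold. The expected pileup reached 61.3 to 63.4 times the background in the list where it was highest. The last lay at chromosome 1, 566145 to 566765, with 621 bp and 1.87-fold in HepG2 anti-HA, 580 bp and 1.91-fold in HepG2 anti-HOXA13, and 557 bp and 1.57-fold in Huh7 anti-HA, and its expected pileup reached 53.8 times the background. Apart from the chromosome 21 region, being wide in 3 lists thus went with very high input and a fold of at most 2.003 in the wide intervals.

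At the 3 places of widest mean rank in the anti-HA pair, the expected pileup was at most 3.31 times the background. Chromosome 7, 121035542 to 121036683, was 1142 bp wide at 13.8-fold in HepG2 anti-HA and 663 bp at 4.24-fold in Huh7 anti-HA. Chromosome 3, 101567963 to 101568861, was 896 bp wide at 5.83-fold in HepG2 anti-HA and 897 bp at 2.98-fold in Huh7 anti-HA. Chromosome 16, 89786971 to 89788158, was 1154 bp wide at 3.21-fold in HepG2 anti-HA and 654 bp at 3.05-fold in Huh7 anti-HA, with 1 of the 2 intervals on raised input. The fold was higher in HepG2 anti-HA at all 3 places, and the widths were nearly equal in the chromosome 3 region.

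The 4 regions wide in both anti-HOXA13 lists all lay on chromosome 19. At 44980643 to 44981768 the interval was 1010 bp wide at 3.36-fold in HepG2 anti-HOXA13 and 1126 bp at 9.23-fold in Huh7 anti-HOXA13. At 58489598 to 58490893 it was 570 bp at 2.93-fold in HepG2 anti-HOXA13 and 1296 bp at 8.90-fold in Huh7 anti-HOXA13. At 58708182 to 58708776 it was 542 bp at 3.42-fold in HepG2 anti-HOXA13 and 556 bp at 9.29-fold in Huh7 anti-HOXA13, and at 56934622 to 56935940 it was 628 bp at 2.9-fold in HepG2 anti-HOXA13 and 1319 bp at 4.77-fold in Huh7 anti-HOXA13. All 4 had the higher fold in Huh7 anti-HOXA13. The first 3 of the 4 were among the strong intervals of that list, and in HepG2 anti-HOXA13 none was.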

How the data were processed

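Peak lists of 4 ChIP libraries, each called against the input of the same cells, were used as deposited. The submitters' processing notes name BWA and MACS2, without versions or settings. Those notes name GRCh38, but the lists carry the sequence names of GRCh37 with a decoy, so positions are printed as GRCh37 and none was converted. The deposited values per interval were the fold (ratio of ChIP to expected pileup at the summit, with 1 added to each), −log10 p and −log10 q; the last deposited column was another number, the offset of the summit in the interval. The lowest −log10 p lay at 2.00 in the deposited lists, so they were limited at p of 0.01. The lists give no read totals. The background expected pileup was 2.62 for HepG2 anti-HA, 1.73 for HepG2 anti-HOXA13, 2.61 for Huh7 anti-HA and 2.60 for Huh7 anti-HOXA13.

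ChIP and expected pileups were solved from fold and −log10 p with the published MACS2 formulas, for 99.99% or more of the intervals of each list, with the ChIP scaled by 0.812 in Huh7 anti-HOXA13. The method was tested on simulated data. An interval was held by another list at an overlap of 1 bp, or where its summit lay inside an interval of it. Named regions are the 10 widest and the 5 of highest fold without raised input per list, every region wide in 3 or 4 lists, and the 3 best by mean rank of width for each pair of lists wide in the same region; the last of the regions wide in both anti-HOXA13 lists, and the larger runs, were added after their values were seen. Alternatives tried were another width limit, a q limit, the summit rule, other limits of raised input and of distance, and no raised input. The members and lists were chosen with earlier results of these data known. Genes and sequences were not assigned, because no genome or annotation of GRCh37 was used here. Tables were computed with pandas 2.3.3, numpy 2.4.6 and scipy 1.17.1 and drawn with matplotlib 3.10.9, under Python 3.11.15.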

Additional observations from a re-analysis of the deposited data

Results flagged for a closer look

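Intervals of 500 bp or more also lay outside chromosomes 1 to 22, in data the comparisons above did not use. There were 670 for HepG2 anti-HA, 1384 for HepG2 anti-HOXA13 and 44 for Huh7 anti-HA, and 1 for Huh7 anti-HOXA13. The decoy sequence held 545 of those in HepG2 anti-HA, 1201 of those in HepG2 anti-HOXA13 and 33 of those in Huh7 anti-HA. HepG2 anti-HOXA13 thus had more wide intervals outside chromosomes 1 to 22 than on them, where it had 243. The widest outside was 34997 bp, in HepG2 anti-HOXA13, on an unplaced or unlocalised contig.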

How the results depend on the processing

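No paired analysis was possible because each condition had 1 library. Of 40 alternatives, 14 left the value within its own limits or within 1.5 times the count, and 26 moved it; the cause was not tested unless the alternative itself drops intervals. With a limit of 5 times the shortest interval, wide intervals numbered 425 for HepG2 anti-HA, 212 for HepG2 anti-HOXA13, 150 for Huh7 anti-HA and 69 for Huh7 anti-HOXA13. The share held in HepG2 anti-HA was then 34.1%. With −log10 q of 1.3 or more, they numbered 160 for HepG2 anti-HOXA13 and 137 for Huh7 anti-HA, and the shares held were 10.7% for HepG2 anti-HA, 56.9% for Huh7 anti-HA and 11.7% for Huh7 anti-HOXA13. By summit the shares held were 18.9% for HepG2 anti-HA, 38.3% for HepG2 anti-HOXA13, 39.8% for Huh7 anti-HA and 13.9% for Huh7 anti-HOXA13. Without raised input they were 19.98%, 33.3% and 27.5% in the first 3 of these lists. Raised input defined as over 2 times the background gave 63.2% for HepG2 anti-HA, 44.9% for HepG2 anti-HOXA13, 69.1% for Huh7 anti-HA and 25.4% for Huh7 anti-HOXA13. Over 5 times gave 8.43%, 19.8%, 14.5% and 1.64% in the same order. Within 2 Mb of a long stretch lay 4.15% for HepG2 anti-HA and 49.0% for HepG2 anti-HOXA13. Leaving out chromosome 19, chosen after seeing the data, moved no share held beyond its limits. Shallow pileups, a median of 14 fragments at wide HepG2 anti-HOXA13 summits, limit how well a width or fold is known there.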
